A study of Homo sapiens with 9 samples.

Results

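The 3 arrays described here measured RNA of PC3 cells that had received a control siRNA, and they are 3 of the 9 arrays of the series. They were chosen by their label alone, as the arrays of cells transfected with the All Stars negative control siRNA. Cells were transfected at 50 nM with the HiPerfect reagent and lysed 48 h later, and total RNA was amplified to biotin-labelled cRNA and hybridized to Illumina HT-12 v4 BeadChips. The other arrays, 3 with MELK siRNA and 3 with UBE2C siRNA, do not enter any level given here. All 9 arrays came from transfected cells, so the levels are those of cells carrying a control siRNA and its reagent. Nothing in the labels says that the 3 arrays came from separate cultures, and the spread between them may be technical.

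PC3 is an established human cell line derived from a bone metastasis of a prostatic adenocarcinoma, and it grows without androgen. In the prostate gland, luminal epithelial cells carry keratins 8 and 18 and secrete kallikreins such as prostate-specific antigen under androgen control, while basal cells beneath them carry keratins 5 and 14. Vimentin is the intermediate filament of mesenchymal cells and is also found in epithelial tumour lines that have taken on mesenchymal features.

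A level is a background-corrected signal in arbitrary units, given per array in the order of replicates 1, 2 and 3 and then as mean ± SD (n = 3). A probe counted as above background on an array when its detection p-value was under 0.01 and its signal lay above the array background, which was 97.7, 101.9 and 99.4 units before correction. A gene was represented by its brightest probe, and it counted as above background when a probe of it was so on all 3 arrays. Ranks run from 1 (brightest) to 20046, and a percentile of 100 is the bright end. A signal depends on the probe as well as on the transcript, so ranks order probe signals and a signal at background does not show that a transcript was absent.

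Of 20046 genes, 10123 were above background on all 3 arrays (50.5%), 1966 on some arrays and 7957 on none. Among protein-coding genes 9726 of 17777 were above background (54.7%), against 125 of 798 long non-coding RNA genes (15.7%) and 18 of 561 microRNA genes (3.21%). The 3 arrays carried 18533, 18508 and 18493 probes above background, so no array stood apart in this count. The 100 brightest genes held 14.0% of the summed signal and the 1000 brightest held 58.7%. Across all genes the log2 signals of array pairs, with 16 units added to each level, had Pearson correlations of 0.990 to 0.991. In this description the points share the probe. Olfactory receptors, which are used in the nose, gave 7 of 371 above background (1.89%), taste receptors 0 of 27 and hair keratin-associated proteins 1 of 80. When 1 array sufficed, 33 olfactory receptors were called. Whether PC3 cells use members of those families was not tested, so their counts give no error rate of the detection rule.

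**Figure D1:**
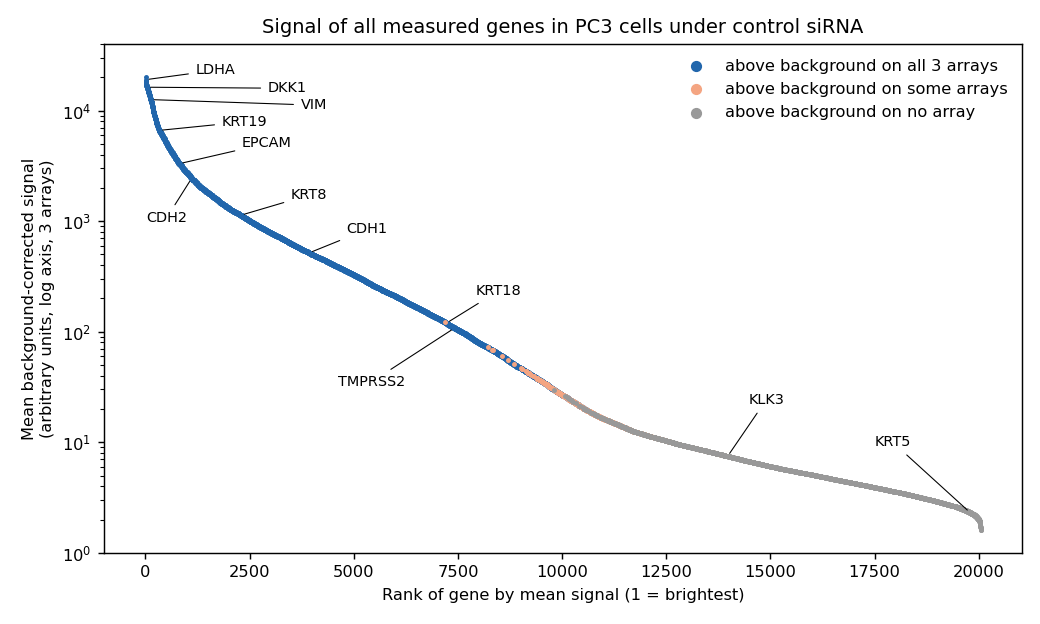
Mean background-corrected signal (log axis, arbitrary units, mean of 3 arrays) of 20046 genes against their rank, coloured by the number of arrays on which a probe was above background. LDHA, DKK1 and VIM lie at the bright end, KRT18 and TMPRSS2 near 100 units, and KLK3 and KRT5 among the genes above background on no array.

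EEF1A1, which delivers aminoacyl-tRNA to the ribosome, ranked first with 20418, 20418 and 19314 units (20049.7 ± 637). LDHA, the lactate dehydrogenase subunit that turns pyruvate into lactate, ranked second with 19829, 19113 and 18089 units (19011 ± 874). Both were among the 7 brightest genes on every array. The other genes of the first 25 were TPT1, SLC25A5, TUBA1C, RPL41, RPS27, OAZ1, ATP5F1B, ANXA2, RPS25, RPL13AP5, RPL39, RPS29, COX7C, TMSB4X, RPL38, PABPC1, NME1, RPL6, EIF4A1, ATP5F1EP2, ACTG1, COX8A and NME1-NME2. Their means ran from 16836 units (NME1-NME2) to 18409 units (TPT1, the translationally controlled tumour protein). Cytosolic ribosomal proteins made up 38 of the 100 brightest genes, glycolysis enzymes 3 and proteasome subunits 0. Of the 100, 9 were annotated as pseudogenes, which share sequence with their parent genes, so the level of either is uncertain. Of the 59 genes in the first 100 with several probes, 9 had another probe above background on no array, among them GNAS, SNRPD2 and TMSB4X.

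All 27 measured proteasome subunits were above background, with a median percentile of 96.9, against 50 for all genes. PSMA6 (10754 ± 456 units) and PSMB1 (10499 ± 379 units), both of the proteasome core, led that list. Of 72 cytosolic ribosomal proteins 70 were above background (median percentile 99.5). The exceptions were RPL3L, a muscle form of RPL3, and RPL10, which had 4.55, 2.31 and 7.92 units on the brighter of its 2 probes. RPL10 encodes a protein of the large ribosomal subunit, and its probes were at background on all 3 arrays. Of 20 glycolysis enzymes and glucose transporters 19 were above background (median percentile 95.3), with GAPDH at 15910.4 ± 1557, ENO1 at 15666 ± 1191, HK1 at 9744 ± 247 and PGK1 at 9123 ± 795 units. The missing member was SLC2A3, the neuronal-type glucose transporter, at 2.28 units.

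**Figure D2:**
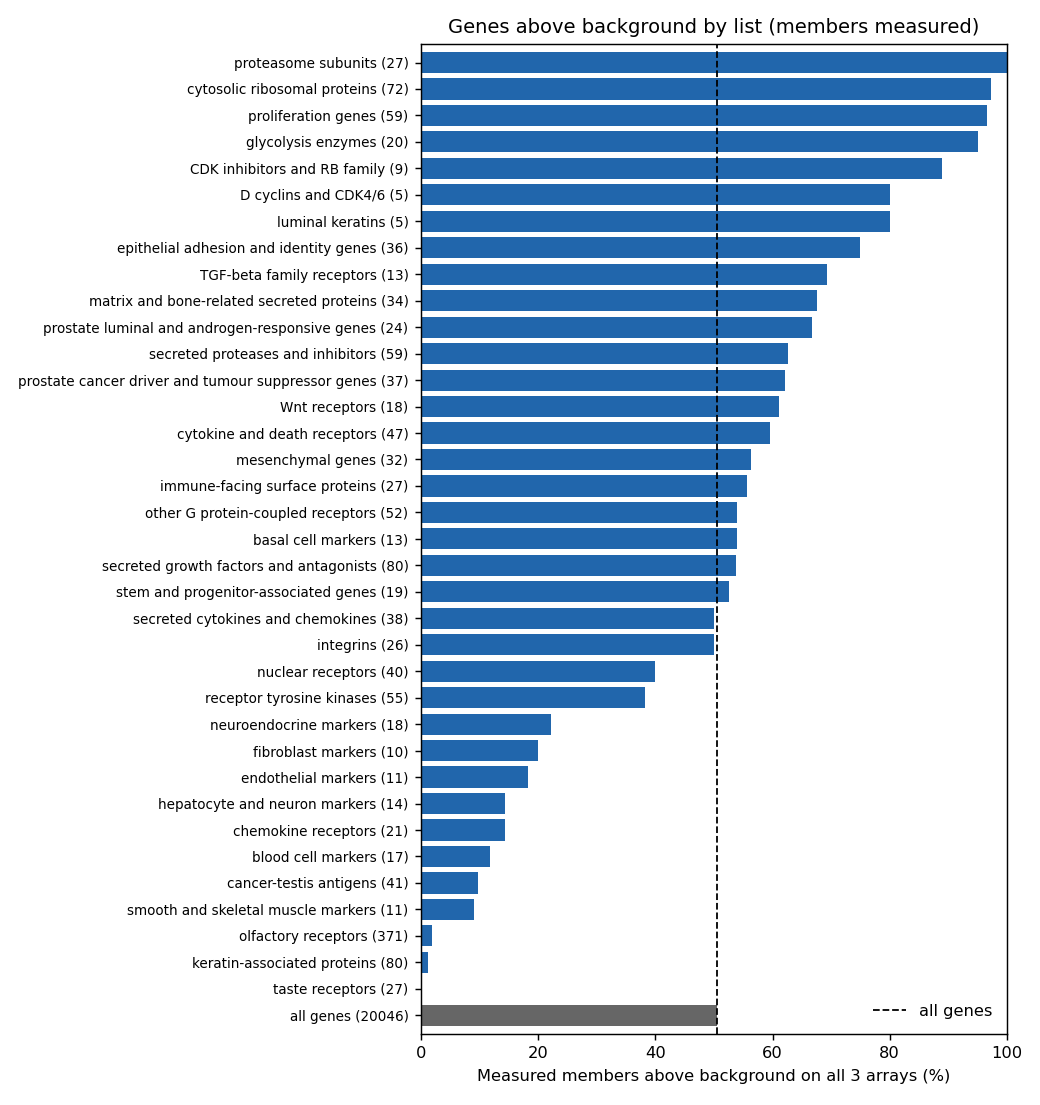
Share of measured genes above background on all 3 arrays (percent, axis from 0) for each gene list, with the number of measured members in brackets, beside all genes (grey bar and dashed line, 50.5%). Proteasome, ribosomal, proliferation and glycolysis lists lie above 90%, and olfactory, taste and hair keratin-associated genes lie below 2%.

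The lineage markers gave a mixed picture. Luminal keratins were present: 4 of 5 were above background (median percentile 88.6, against 50 for all genes). KRT19, a keratin of simple and glandular epithelia, had 6771, 6446 and 6625 units (6614 ± 163, rank 329). KRT8, the luminal partner of keratin 18, had 997, 1281 and 1114 units (1130.4 ± 143, rank 2289). The 3 arrays of each gene lay close together, and both genes stood far above background.

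KRT18 itself had a lower signal, with 149.5, 69.6 and 139 units (119 ± 43.5, rank 7224), replicate 2 being the low array. Its second probe averaged 28.1 units and was above background on 2 arrays. KRT7, a keratin of ducts and glands, had 1353 ± 145 units, and KRT20, an intestinal keratin, was above background on no array. Among the 49 keratin genes of the whole family 9 were above background (18.4%, against 50.5% of all genes). Besides the keratins named so far, KRT10 (2744 ± 54.7) and KRT80 (760.5 ± 45.5) were the brightest.

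Several products of the differentiated gland were at background. KLK3, which encodes prostate-specific antigen, had 3.39, 4.46 and 14.5 units (rank 13972), and KLK2, a related kallikrein, had 4.02, 6.92 and 6.26 units. Neither was above background on any array. ACP3 (prostatic acid phosphatase), MSMB (a seminal plasma protein), FOLH1 (prostate-specific membrane antigen), TGM4, TRPM8 and STEAP4 were likewise above background on no array. TMPRSS2, an androgen-responsive surface protease, had 81.6, 111 and 131 units and was above background on each. KLK4, a further kallikrein, was weak but also above background on all 3 arrays, with 40.7, 30.0 and 40.7 units.

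Some other genes of the prostate luminal list were nevertheless strong. Of its 24 measured members 16 were above background (66.7%, against 50.5% of all genes), with a median percentile of 62.1. Only 1 was among the 1000 brightest genes, and GATA2 (110), STEAP2 (90.9), NEFH (36.2) and CHRNA2 (29.7) were weak. FOXA1, a pioneer transcription factor of luminal cells, had 2489, 2410.2 and 2495 units (2465 ± 47.3). HOXB13, the homeobox factor that marks prostate identity, had 1807, 2044 and 1536 units (1796 ± 254). Both factors were seen on all 3 arrays with percentiles of 94.5 and 92.5. NDRG1 (2865 ± 284), SPDEF (1196 ± 177), an epithelial ETS factor, STEAP1 (644 ± 61.7), a surface metalloreductase, SLC45A3 (605 ± 42.3), PMEPA1 (471 ± 42.7) and FKBP5 (438 ± 10.4), a steroid receptor co-chaperone, followed. Within the HOXB cluster, HOXB13 was accompanied by HOXB5 (124) and HOXB6 (40.1) only (30.0% of the cluster). Of the 10 HOXB genes 6 were above background on no array, against 39.7% of all genes. HOXC genes gave 4 of 9 above background (44.4%), led by HOXC6 (616 ± 32.7). HOXD genes gave 1 of 9 (11.1%), which was HOXD4, against 50.5% of all genes.

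**Figure D3:**
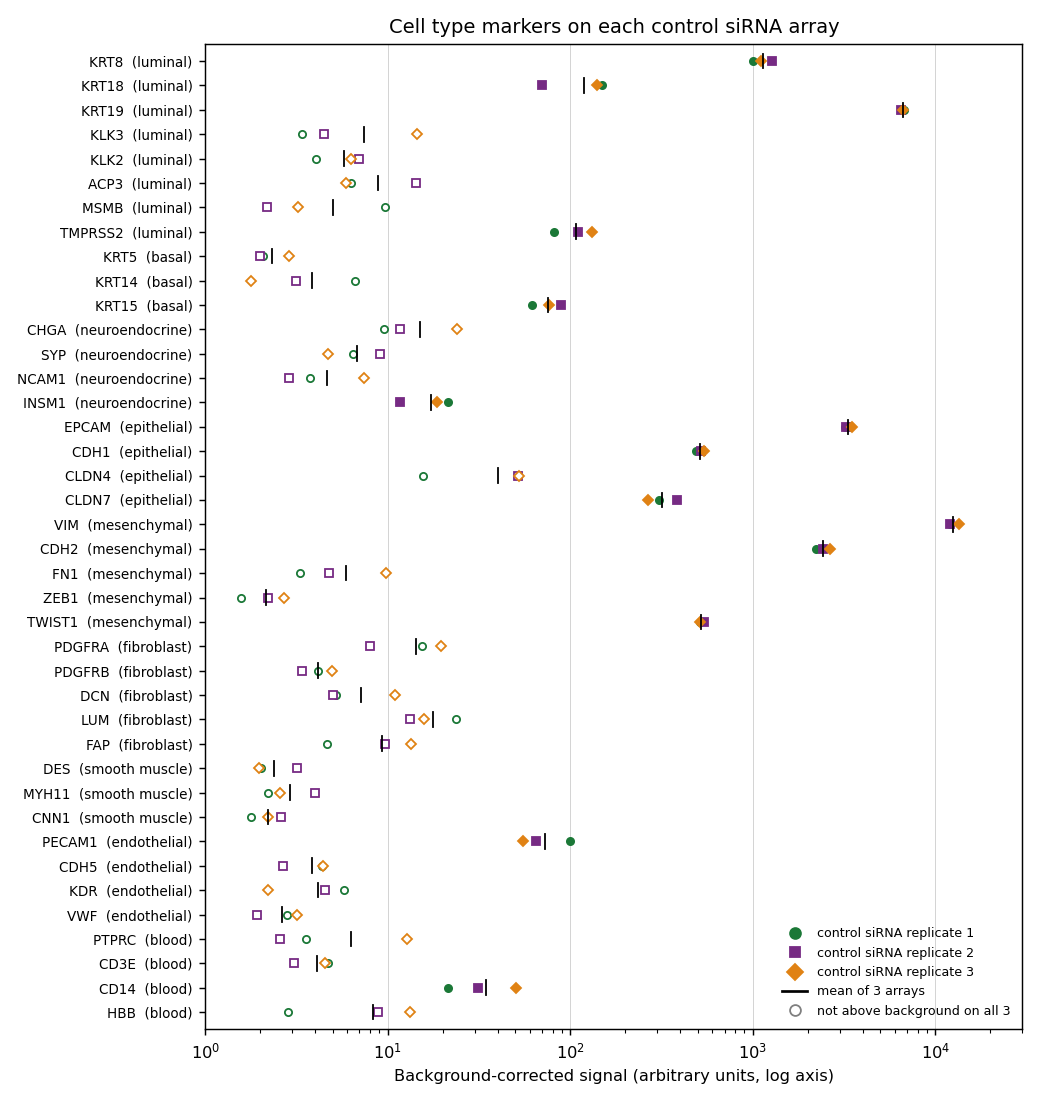
Background-corrected signal (log axis, arbitrary units) of the cell type markers on each control siRNA array, with the type in brackets and the mean as a black bar, and open symbols for genes not above background on all 3 arrays. KRT19, EPCAM, VIM and CDH2 lie above 1000 units on all 3 arrays, while KLK3, KRT5, SYP and the smooth muscle markers lie below 20 units.

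VIM and EPCAM were both bright in the same RNA. VIM, the vimentin gene, had 12048, 12081 and 13551 units (12559.9 ± 858, rank 124), and its second probe averaged 8583 units. EPCAM, the epithelial cell adhesion molecule, had 3197, 3255 and 3474 units (3309 ± 146, rank 815). These values describe pooled RNA, so they do not say whether single cells carried both transcripts, and fewer cells of a kind cannot be told apart from less RNA per cell.

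The cadherins showed the same co-occurrence. CDH2, the N-cadherin of neural and mesenchymal cells, had 2220.2, 2436 and 2644 units (2433 ± 212), and CDH1, the E-cadherin of epithelial junctions, had 491, 519 and 538 units (516 ± 24.0). CDH11, a cadherin of bone-forming cells, had 2868, 2931 and 3483 units (3094 ± 338). Each of the 3 cadherins was above background on every array.

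Of 36 epithelial adhesion and identity genes 27 were above background (75.0%, against 50.5% of all genes), with a median percentile of 65.7. MAL2, an apical transport protein, led with 4329 ± 443 units, followed by SPINT2 (3373 ± 417), a protease inhibitor, and, after EPCAM, by DSG2 (1172 ± 127) and PERP (728 ± 54.6) of the desmosome, JUP (679 ± 71.8), CLDN3 (595 ± 66.2) and TJP1 (570.1 ± 142) of the junctions. The splicing regulator ESRP2, the factors GRHL1 and OVOL1, and the tight junction genes OCLN and MARVELD2 were above background on no array. CTNNA1 encodes alpha-catenin, which links cadherins to actin, and PC3 cells are known to carry a deletion of that gene. It had 7.13, 6.89 and 12.2 units, was above background on 1 array, and had a second probe that averaged 3.3 units.

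Of 32 mesenchymal genes 18 were above background (56.2%, against 50.5% of all genes), with a median percentile of 56.6. LGALS1, which encodes galectin-1, led with 15146, 17978 and 14721 units (15948 ± 1771). Chains of collagen VI were present, with COL6A1 at 2797 ± 98.9, COL6A2 at 1999 ± 423 and COL6A3 at 1722 ± 119.7 units, and S100A4 had 759 ± 104. The transcription factor TWIST1 had 513, 538 and 515 units (522 ± 14.1). Other inducers of the mesenchymal programme were not seen: ZEB1, ZEB2 and SNAI1 were above background on no array. The same was true of FN1 (fibronectin, 3 probes), MMP2, LOX, LOXL2 and THY1, and COL1A2 and COL3A1, fibrillar collagens of stroma, were above background on some arrays only.

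KRT5 and KRT14, the main keratins of basal cells, had means of 2.32 and 3.84 units and were above background on no array, nor were DSG3, KRT16, LGALS7 and NGFR. KRT15, a further basal keratin, was weak but above background on all 3 arrays, with 61.4, 89.1 and 76.8 units. Of 13 measured basal markers 7 were above background (53.8%, against 50.5% of all genes), led by the laminin chain LAMB3 (1262 ± 163) and the integrin chains ITGB4 (464 ± 87.7) and ITGA6 (368 ± 92.2), which bind laminin. Neuroendocrine genes gave 4 of 18 above background (22.2%, against 50.5% of all genes), with a median percentile of 27.2. The 4 were ENO2 (452 ± 36.9), ONECUT2 (35.3 ± 16.6), SCG5 (33.5 ± 2.42) and INSM1 (17.2 ± 4.97). CHGA (chromogranin A) was above background on some arrays, at 9.56, 11.7 and 24.0 units. SYP, NCAM1, CHGB, NKX2-1 and SRRM4 were so on none. With a signal over 1.5 times the background required as well, a rule chosen after seeing the data, 1 neuroendocrine gene remained above it.

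Markers of other tissues were checked in the same way. Fibroblast markers gave 2 of 10 above background, muscle markers 1 of 11 and endothelial markers 2 of 11. Blood cell markers gave 2 of 17, and liver and neuron markers 2 of 14. In each of these lists the share above background was under the 50.5% of all genes. When 1 array sufficed, the counts of these lists, in the same order, were 5, 2, 4, 7 and 6. The summed signal of the defining fibroblast markers (PDGFRA, PDGFRB, DCN, LUM, FAP) was 39.3 to 64.9 units per array, of smooth muscle (DES, MYH11, CNN1) 6.02 to 9.78, of endothelium (PECAM1, CDH5, KDR, VWF) 64.6 to 113, and of blood (PTPRC, CD3E, CD14, HBB) 32.7 to 80.8. For the luminal markers the sum was 7935 to 8039 units, most of it from KRT19, with 4 of the 8 measured on no array. For the mesenchymal ones it was 14786 to 16723, most of it from VIM. Sums over different probes are not compared with each other. Single members of the other lists were nevertheless clear. CD68, a lysosomal protein used as a macrophage marker, had 1749, 1841 and 1583 units, while the leukocyte genes PTPRC, SPI1 and CSF1R were above background on no array. SMTN (957 ± 97.8), FBLN1 (858 ± 122) and NEFL (636 ± 114), the neurofilament light chain, were also above background. Weaker but above background on all 3 arrays were the endothelial markers PECAM1 (99.7, 64.9 and 54.8 units) and ESAM (89.6 ± 18.8). The same held for PDPN (48.0 ± 12.4) of the fibroblast list and CD14 (34.4 ± 14.6) of the blood list. ALB gave 157, 125 and 65.3 units on 1 probe and 3.9 units on its other, with APOB, TTR and FGB on no array.

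Genes associated with stem and progenitor cells gave 10 of 19 above background (52.6%, against 50.5% of all genes), with a median percentile of 62.4. ALDH1A3, a retinaldehyde dehydrogenase, had 10924, 12158 and 11498 units (11527 ± 618, rank 158). CD44, the hyaluronan receptor, had 4110.3 ± 351 units, and ALCAM (2694 ± 202), BMI1 (2076 ± 80.7), CD24 (1713 ± 96.0), SOX9 (1374 ± 118), ITGA2 (789 ± 95.0) and SOX4 (637 ± 36.8) followed. PROM1, LGR5, NANOG, LIN28A, LIN28B, ABCG2 and PSCA were above background on no array.

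Promoters are given as RefSeq windows of 300 bases on GRCh38.p14, from 250 before to 50 after the annotated start, and 14440 of 17777 protein-coding genes matched a window. Genes above background on all 3 arrays had a median of 27 CpG dinucleotides and a CpG observed over expected ratio of 0.849, against 9 and 0.436 for genes above background on no array. The letters TATAAA, searched on both strands anywhere in the window, were in 5.46% of windows of genes above background and in 16% of windows of genes on no array, and 9.40% of all 14440 windows held them. Read the other way, 447 of 1358 genes with TATAAA were above background (32.9%), against 7740 of 13082 without it (59.2%). The share with TATAAA did not fall further with signal: it was 7% in the 1000 brightest of the genes above background and 11% in the 100 brightest. Olfactory receptors, mostly on no array, held the letters in 34.4% of 294 windows. CpG content and the TATAAA letters are properties of the gene and not of these arrays, and no test was made.

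**Figure D4:**
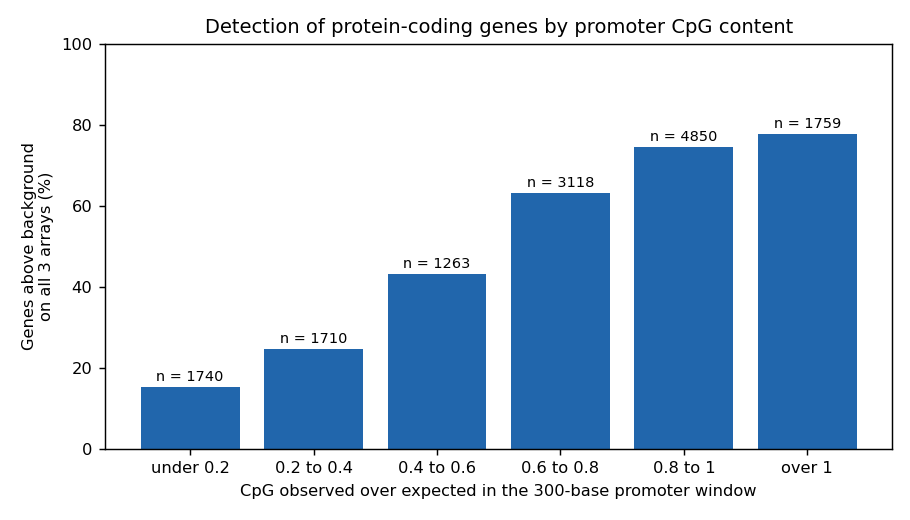
Percent of protein-coding genes above background on all 3 arrays, in bins of the CpG observed over expected ratio of the 300-base promoter window, with the number of genes above each bar. The share goes from 15.3% in the lowest bin to 77.8% in the highest.

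The windows of KLK3 (chr19:50854665-50854964, plus strand), KLK2 (chr19:50873189-50873488, plus strand) and DKK1 (chr10:52314031-52314330, plus strand) are printed 5′ to 3′ because they hold the TATAAA letters near the start and belong to genes whose signals lay far apart. Capitals mark TATAAA or its reverse complement TTTATA, which begins 28 bases before the start in KLK3, 34 bases before it in KLK2 and, as TATAAA, 30 bases before it in DKK1.
KLK3: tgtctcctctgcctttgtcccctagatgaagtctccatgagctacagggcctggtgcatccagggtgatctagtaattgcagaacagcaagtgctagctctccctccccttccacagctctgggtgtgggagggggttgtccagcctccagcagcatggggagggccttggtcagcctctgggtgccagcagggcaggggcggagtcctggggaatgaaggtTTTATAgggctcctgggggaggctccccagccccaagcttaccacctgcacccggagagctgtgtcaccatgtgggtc
KLK2: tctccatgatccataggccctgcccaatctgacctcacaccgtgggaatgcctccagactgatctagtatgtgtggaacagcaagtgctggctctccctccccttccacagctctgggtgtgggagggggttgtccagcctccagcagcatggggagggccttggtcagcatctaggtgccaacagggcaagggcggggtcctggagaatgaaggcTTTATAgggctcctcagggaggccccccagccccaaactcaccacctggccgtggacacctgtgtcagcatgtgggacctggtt
DKK1: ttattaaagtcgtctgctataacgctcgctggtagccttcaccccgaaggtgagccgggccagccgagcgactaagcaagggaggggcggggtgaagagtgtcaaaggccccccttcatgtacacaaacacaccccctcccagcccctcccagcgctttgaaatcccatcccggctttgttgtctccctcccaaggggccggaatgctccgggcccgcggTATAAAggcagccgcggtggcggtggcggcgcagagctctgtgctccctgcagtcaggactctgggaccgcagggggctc
The KLK3 window held 2 CpG dinucleotides at a GC content of 61.0%, the KLK2 window 3 at 60.7% and the DKK1 window 20 at 63.7%. A match of letters is a description of the window and shows no binding.

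Cell cycle genes were nearly all present. Of 59 proliferation genes 57 were above background on all 3 arrays (96.6%, against 50.5% of all genes), with a median percentile of 88.6. TYMS, the thymidylate synthase that supplies dTMP for DNA synthesis, had 7491, 7572 and 7209 units (7424 ± 191). CKS1B, a small subunit of cyclin-dependent kinases, had 6883, 7348 and 7465 units (7232 ± 308). UBE2C, the ubiquitin-conjugating enzyme of the anaphase-promoting complex and a target of the other siRNAs of the series, had 7409, 7012 and 6829 units (7083 ± 296, rank 299). MELK, the other target and the maternal embryonic leucine zipper kinase, had 1379, 1252 and 1361 units (1331 ± 68.8, rank 1969). Both targets were well above background in cells with the control siRNA.

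Replication licensing factors MCM7 (5608 ± 523) and MCM3 (5198 ± 476), the mitotic regulators PTTG1 (5048 ± 450.2) and CDC20 (4938 ± 303) and the thymidine kinase TK1 (4695 ± 379) completed the first 8. At the low end, MKI67, the gene of the Ki-67 antigen, had 25.7, 49.2 and 49.0 units and CDC6 had 24.1, 20.3 and 17.5. Both have a single probe. GINS1 and CCNE2 were above background on no array, with 11.3 and 2.61 units.

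The windows of CCNB2 (cyclin B2, chr15:59104896-59105195, plus strand) and TOP2A (topoisomerase II alpha, chr17:40417847-40418146, minus strand) are printed as examples of proliferation promoters that hold several CCAAT letters. Capitals mark CCAAT or its reverse complement ATTGG. These letters begin 244, 120, 87 and 54 bases before the start in CCNB2 and 244, 160, 93 and 53 bases before it in TOP2A.
CCNB2: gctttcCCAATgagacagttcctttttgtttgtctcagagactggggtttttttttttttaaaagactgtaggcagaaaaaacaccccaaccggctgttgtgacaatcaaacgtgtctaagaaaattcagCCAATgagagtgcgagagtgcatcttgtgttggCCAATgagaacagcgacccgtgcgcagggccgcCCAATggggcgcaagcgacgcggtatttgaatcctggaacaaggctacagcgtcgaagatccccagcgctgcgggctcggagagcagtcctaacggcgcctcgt
TOP2A: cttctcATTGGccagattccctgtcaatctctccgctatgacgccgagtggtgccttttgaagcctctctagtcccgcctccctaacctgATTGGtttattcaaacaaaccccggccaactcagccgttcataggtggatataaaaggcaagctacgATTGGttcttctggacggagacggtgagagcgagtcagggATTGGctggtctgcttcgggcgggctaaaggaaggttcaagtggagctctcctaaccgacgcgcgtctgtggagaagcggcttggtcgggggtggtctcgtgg
CCNB2 had 1757, 1597 and 1621 units and TOP2A had 1729, 1827 and 2143 units. CCAAT on either strand was in 72.9% of the 48 proliferation windows that matched, against 36.6% of all windows. The CCAAT letters were in 37.7% of windows of genes above background and in 35.8% of windows of genes on no array. CCGGAAG on either strand was in 35% of 60 ribosomal protein windows, against 14.6% of all windows and 20.1% of windows of genes above background. It was also in 24.4% of windows of the 1000 brightest genes, 30% of the 100 brightest and 30.4% of 23 proteasome windows.

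Among the G1 regulators, CCND1, the cyclin D1 gene, had 10643, 10033 and 10765 units (10480.4 ± 392, rank 179). CDK4 had 3842 ± 339.9 units, CCND3 2010.3 ± 148 and CDK6 420.2 ± 29.2, and CCND2 was above background on no array. Of the 9 CDK inhibitors and RB family genes measured, 8 were above background (88.9%, against 50.5% of all genes). CDKN2A, which encodes p16 and ARF, had 546, 487 and 474 units (502 ± 38.6), and CDKN1A (p21) had 390.3, 402 and 399.8 units (397 ± 6.12). RB1 had 44.4, 12.3 and 55.9 units and was above background on some arrays only.

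Of 55 receptor tyrosine kinases 21 were above background (38.2%, against 50.5% of all genes), with a median percentile of 41.7. AXL, the receptor for GAS6, had 3249, 3775 and 2529 units (3184 ± 626), and its second probe averaged 3016 units. MET, the receptor for hepatocyte growth factor, had 2079, 1699.6 and 1904 units (1894 ± 190.0). EPHA2 (1258 ± 135) and EPHB4 (814 ± 117), both ephrin receptors, RYK (537 ± 42.1), DDR1 (394 ± 54.6), a collagen receptor, EGFR (378 ± 12.2) and ERBB2 (334 ± 29.5) followed. The 24 kinases above background on no array included FGFR1, FGFR2, IGF1R, INSR, KIT, PDGFRB, ERBB4 and the vascular receptors KDR, FLT1 and FLT4. GAS6, the AXL ligand, was above background, and HGF, the MET ligand, was not.

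Cytokine and death receptors gave 28 of 47 above background (59.6%, against 50.5% of all genes), with a median percentile of 58.0. TNFRSF21, death receptor 6, had 7005, 7333 and 7212 units (7183 ± 166). TNFRSF12A, the TWEAK receptor, had 2845, 2240.3 and 3280.2 units (2789 ± 522). The interferon gamma receptor chain IFNGR2 (2434 ± 236), LTBR (1991 ± 138), CSF2RA (1617 ± 276), IL13RA1 (1191 ± 167), TNFRSF1A (1015 ± 143) and IL10RB (995 ± 322) followed. FAS, IL1R1, IL6R, TNFRSF1B and the decoy receptor TNFRSF11B were above background on no array. The interleukin 6 signalling chain IL6ST, in contrast to IL6R, was above background on all 3.

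Among receptors of the TGF-beta family 9 of 13 were above background (69.2%, against 50.5% of all genes). TGFBR2, the type II receptor, had 1550.0, 1625 and 1677 units (1617 ± 63.7), whereas TGFBR1, its type I partner, was above background on no array. ACVR1 had 716 ± 34.3 units. The list of Wnt receptors also holds the Hedgehog transducer SMO and the ubiquitin ligases ZNRF3 and RNF43. It gave 11 of 18 above background (61.1%, against 50.5% of all genes), with SMO and ZNRF3 among them. FZD8 (2096 ± 124), the co-receptor LRP5 (1054 ± 101) and FZD4 (1006 ± 68.8) led. LGR5, RNF43 and FZD10 were above background on no array, and 7 of the 18 had a signal over 1.5 times the background. WNT ligands gave 5 of 19 (26.3%), led by WNT7B (244 ± 39.2), WNT5A (204 ± 16.7) and WNT7A (195 ± 25.4).

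Of 52 other G protein-coupled receptors 28 were above background (53.8%, against 50.5% of all genes). F2R, the thrombin receptor PAR1, had 15958, 16123 and 15408 units (15829.5 ± 374, rank 49) and ranked first among the receptors listed, and its second probe averaged 1092 units. ADGRE5, the adhesion receptor CD97, had 4220.4 ± 96.3 units, and the lysophosphatidic acid receptor LPAR1 had 2604 ± 204. GPRC5C (2551 ± 116), the adenosine receptor ADORA2B (1907 ± 56.7), ADGRG1 (1397 ± 77.2), the gastrin-releasing peptide receptor GRPR (1132 ± 56.0) and GPER1 (798 ± 72.8) followed. GRP, the ligand of GRPR, was above background on no array.

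Chemokine receptors were mostly at background, with 3 of 21 above it on all 3 arrays (14.3%, against 50.5% of all genes) and 9 when 1 array sufficed. CCR6 had 10636, 11699 and 12439 units (11591 ± 907, rank 155) on 1 probe, while its other 2 probes averaged 6.24 and 3.66 units and were above background on no array. The level of CCR6 is therefore uncertain. ACKR3 had 145 ± 32.6 units and CCRL2 72.7 ± 15.9. CXCR4, CXCR1, CXCR2 and CCR7 were above background on no array.

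Nuclear receptors gave 16 of 40 above background (median percentile 39.3). PPARG, the lipid-sensing receptor of fat cells and differentiated epithelia, had 4285, 4518 and 4535 units (4446 ± 139.9) on its brightest probe. Its other 3 probes averaged 2013, 8.23 and 3.47 units. NR2F1 (1282 ± 150.2), NR2F6 (1137 ± 32.0), the retinoic acid receptor RARA (679 ± 67.1), ESRRA (562 ± 179.8), RXRA (428 ± 86.9), RXRB (405 ± 47.7) and PPARD (352 ± 80.3) followed. NR3C1, the glucocorticoid receptor, was weak at 40.3, 27.6 and 42.1 units, and ESR1 and PGR were above background on no array.

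Integrins gave 13 of 26 above background (50.0%, against 50.5% of all genes). ITGB1, the chain shared by many collagen, laminin and fibronectin receptors, had 9248, 11204 and 10171 units (10208 ± 979, rank 181). ITGA3, a laminin-binding chain, had 4127 ± 173 units, ITGAE 1347 ± 219.9, ITGB5 1188 ± 19.6 and ITGA2, a collagen-binding chain, 789 ± 95.0. ITGB3, ITGB6 and ITGB8 were above background on no array.

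**Figure D5:**
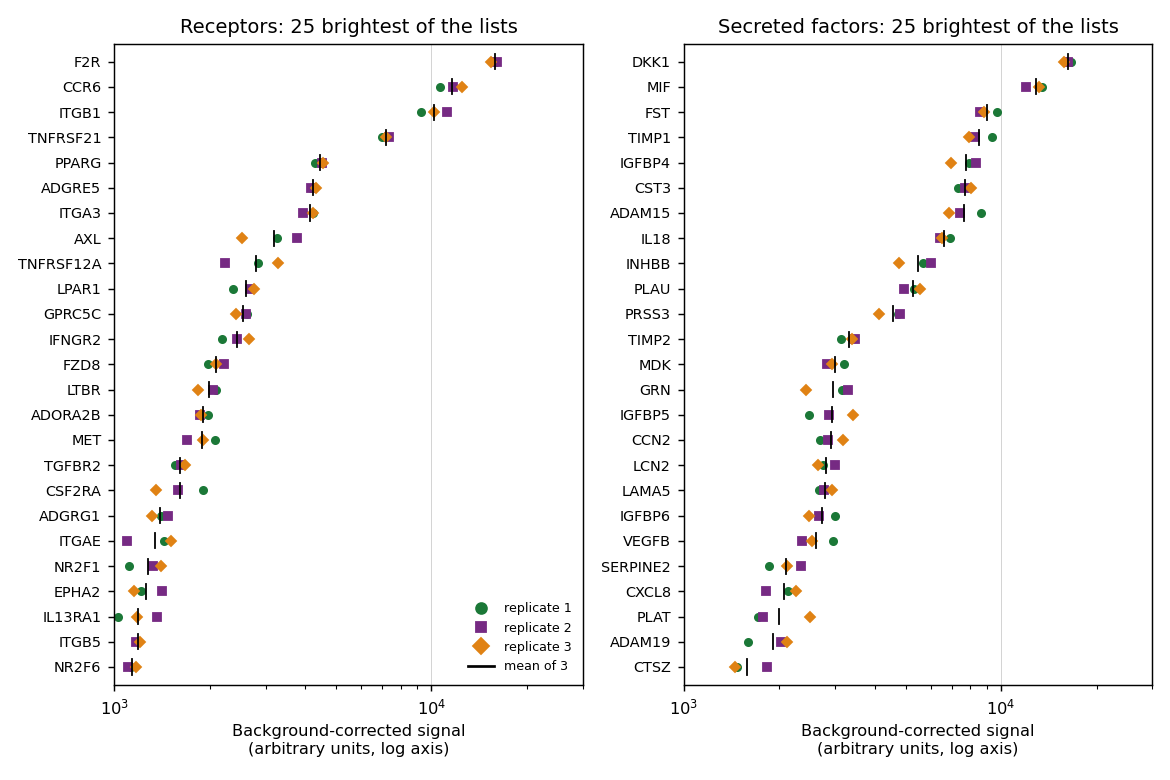
Background-corrected signal (log axis, arbitrary units) of the 25 brightest genes of the 8 receptor lists (left) and of the 4 secreted-factor lists (right) on each of the 3 control siRNA arrays, with the mean as a black bar. Within these lists F2R leads the receptors and DKK1 the secreted factors, both above 15000 units on all 3 arrays.

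Antagonists and binding proteins (DKK1, FST and IGFBP4) led the list of secreted growth factors and antagonists. INHBB, MDK and GRN, which are not of that kind, came next. DKK1, the Wnt antagonist Dickkopf 1, had 16648, 16278 and 15838 units (16255 ± 406, rank 36). FST, the activin-binding protein follistatin, had 9739, 8595 and 8808 units (9047 ± 608). IGFBP4, a binding protein for insulin-like growth factors, had 7940.0, 8362 and 6931 units (7744 ± 735). INHBB, the activin and inhibin beta B chain, had 5482 ± 653 units, and MDK (2989 ± 194), GRN (2959 ± 467), IGFBP5 (2927 ± 472) and CCN2 (2909 ± 255) followed.

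Across this list of growth factors and antagonists 43 of 80 were above background (53.8%, against 50.5% of all genes). The members on no array included IGF1, IGF2, HGF, TGFB1, BMP4, BMP6, BMP7 and DKK3. FGF ligands gave 1 of 22 above background (4.55%), which was FGF2 (125 ± 7.82). The vascular growth factors differed: VEGFB had 2614 ± 309 units and VEGFC 1078 ± 55.0, while VEGFA had 43.1, 37.0 and 57.6 units on the brightest of its 3 probes and averaged 9.73 and 2.70 on the other 2.

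Cytokines and chemokines gave 19 of 38 above background (50.0%, against 50.5% of all genes), with a median percentile of 49.0. With a signal over 1.5 times the background required as well, 11 remained. MIF, the macrophage migration inhibitory factor, had 13489, 11993 and 13123 units (12868 ± 780.0, rank 117). IL18, a cytokine that is activated by inflammasome caspases, had 6888, 6408 and 6515 units (6604 ± 252). CXCL8, interleukin 8, had 2138, 1819.9 and 2255 units (2071 ± 225), and its second probe averaged 847 units. These 3 stood apart from the next members, IL1B (730.1 ± 44.4), CXCL16 (278 ± 26.4), CXCL1 (269 ± 37.5), CXCL6 (240.0 ± 11.3) and CCL26 (152 ± 16.8). IL6 was weak at 57.4, 79.0 and 77.0 units, CCL2 was above background on some arrays, and TNF, CSF1, CSF3, CXCL12 and CXCL10 were so on none.

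Of 59 secreted proteases and inhibitors 37 were above background (62.7%, against 50.5% of all genes), with a median percentile of 62.2. TIMP1, an inhibitor of matrix metalloproteinases, had 9352, 8273 and 7916 units (8513 ± 748). CST3, cystatin C, had 7702 ± 366 units and the metalloproteinase-disintegrin ADAM15 7618 ± 913. PLAU, the urokinase plasminogen activator, had 5302, 4952 and 5572 units (5275 ± 311), and its receptor PLAUR had 514, 659 and 623 units. PRSS3 (4550.3 ± 364), TIMP2 (3323 ± 171), LCN2 (2798 ± 181) and SERPINE2 (2106 ± 242), an inhibitor of plasminogen activators and thrombin, completed the first 8. Matrix metalloproteinases were low or missing, with MMP1 at 119.7, MMP9 at 32.3 and MMP14 at 31.6 units and MMP2, MMP7 and MMP12 on no array.

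Matrix and bone-related genes gave 23 of 34 above background (67.6%, against 50.5% of all genes). The list was led by LAMA5 (2792 ± 139), a basement membrane laminin chain, LTBP3 (1409 ± 222) and LAMB3 (1262 ± 163). MFGE8 (1086 ± 125), AGRN (1028 ± 216) and COL13A1 (952 ± 7.75) followed. SPP1 (osteopontin), IBSP and DMP1, proteins of mineralized matrix, were above background on no array. Outside the lists, MSMP, a microprotein first described as secreted by PC3 cells, had 16244, 16680.2 and 16601 units (16508 ± 232, rank 33). It was picked out after its value had been seen.

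Genes named as drivers or tumour suppressors of prostate cancer gave 23 of 37 above background (62.2%, against 50.5% of all genes). GSTP1, a glutathione transferase often silenced in prostate cancer, had 8402, 7985 and 7459 units (7949 ± 473). BCL2L1, the gene of the survival protein BCL-XL, had 7121, 6931 and 6567 units (6873 ± 282), and the kinase gene AKT1 had 4462 ± 399. MYC had 2205, 2342 and 2291 units (2279 ± 69.0). SPOP (2137 ± 198), ETV4 (1289.5 ± 301), HRAS (889 ± 71.0) and ETV5 (809 ± 50.0) followed. Of the ETS genes that are rearranged in prostate tumours, ERG and ETV1 were above background on no array and ETV4 and ETV5 on all 3. TERT, MYCN, HPN, SPINK1 and the non-coding PCA3 were above background on no array.

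Surface genes that meet the immune system gave 15 of 27 above background (55.6%, against 50.5% of all genes). B2M, the light chain of class I MHC, had 10261, 9521 and 8731 units (9504 ± 765), with TAPBP (952 ± 166) and TAP1 (718 ± 67.1) of peptide loading, the complement inhibitor CD59 (794 ± 30.0), CD47 (502 ± 35.3), CD276 (453 ± 60.1), MICB (371 ± 17.4) and CD55 (321 ± 40.9). CD274 (PD-L1), PDCD1LG2, CIITA, CD80 and VCAM1 were above background on no array. Cancer-testis antigens gave 4 of 41 above background (9.76%, against 50.5% of all genes). MAGED1, which is expressed in many tissues, had 7333, 7459 and 7724 units (7505 ± 199.6). PRAME had 379.8 ± 24.6 units, MAGED2 256 ± 48.8 and XAGE1B 27.7 ± 14.0, and the MAGEA genes measured were above background on no array.

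Of 19 S100 genes, which encode calcium-binding proteins, 11 were above background (57.9%, against 50.5% of all genes). They ranged widely, with S100A10 at 13449 ± 361 and S100A6 at 12323 ± 426 units but S100A2 at 178 ± 4.42. Of 12 annexins 9 were above background (75.0%), the dimmest of them ANXA4 (51.8 ± 7.61). ANXA2, which forms a complex with S100A10 at membranes, had 17900.4, 19314 and 15068 units (17427 ± 2162), replicate 3 being the low array. Collagens gave 16 of 43 (37.2%) and claudins 9 of 23 (39.1%) above background, both under the 50.5% of all genes. The claudins were led by CLDN11 (1944 ± 80.4). Tubulins gave 12 of 17 (70.6%), among them TUBB3 (1986 ± 153), the form typical of neurons.

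The 3 arrays differed little for bright genes and more for dim ones. Over the 10123 genes above background the median SD of the log2 signal was 0.14. It was 0.10 in the 2531 brightest of them and 0.23 in the 2531 dimmest. Between 48 and 102 genes above background differed by more than 1 log2 unit between 2 arrays. RNA28SN5, a ribosomal RNA gene, varied most, with 6372, 1705 and 7289 units. RASL11A (94.3, 31.8 and 164), MARK2 (322, 87.6 and 294), DYRK1B (13.6, 79.6 and 19.0) and TSNAX (282, 127 and 481) came next. Replicate 2 was the low array for RNA28SN5, RASL11A, MARK2 and TSNAX and the high array for DYRK1B. Among genes above background with several probes, 1774 of 4012 had another probe on no array, so the level of a gene with several probes depends on which probe is read.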

How the data were processed

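Illumina HT-12 v4 intensities of 47323 probes on the 3 control siRNA arrays of PC3 cells were analysed. The deposited file gives, per its headers, an average bead signal (intensity, not normalized) and a detection p-value for each probe and array. Per the submitters' processing notes lumi was used, and the log2 values that the authors processed with no background subtraction served as an alternative only. The labels and headers do not name the method behind the detection p-value, and small p-values occurred on both sides of the background (2428 to 3019 probes per array below it), so a probe was also required to exceed the background, the median signal of probes with p over 0.9. Signals were corrected and quantile-normalized over the 3 arrays with neqc of limma 3.58.1 (R 4.3.3, offset 16). The offset was subtracted again from the linear values but kept in the log2 signals, from which SDs, correlations and log2 differences were taken. The correction was also tried on simulated data, and no result of that trial is given here.

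GEO's platform annotation named 1 gene for 30113 probes, several for 8 and none for 17202, giving 20046 genes, and 30074 of those probes' symbols matched RefSeq. There were 32 gene lists and 16 gene families. Of 959 symbols listed 893 were measured, and the others were not analysed here. The members and lists were chosen with earlier results of these data known. Named were the 25 brightest genes, the cell type markers, up to 8 of the brightest members per list, members on no array, the 5 genes that varied most, and genes whose probes disagree. Other genes given with values, and members of the families, were picked after their values were seen. With 1 group no test between conditions and no p-value of a difference could be given, and the number of arrays limits the precision. Alternatives covered the detection rule, background correction, normalization, probe choice and each array left out.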

Additional observations from a re-analysis of the deposited data

How the results depend on the processing

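The count of genes above background was 10123. It was 10644 with a detection p-value under 0.05, 12089 when 1 array sufficed, and 10336 to 10401 when each array was left out in turn. Chosen after seeing the data, the detection p-value alone gave 10253 and a signal over 1.5 times the background gave 8491. Members of the 32 lists above background numbered 493. They numbered 511 with a detection p-value under 0.05, 590 when 1 array sufficed, 501 to 504 with an array left out, 501 by the detection p-value alone and 421 at 1.5 times the background. Background correction, normalization and probe averaging do not enter these counts. Of the 1000 brightest genes, 1000 were shared when all 9 arrays were normalized together, with plain subtraction, with the authors' processed values and with a mirrored background spread. With median scaling 997 were shared, with 1 array left out 981 to 985, and with the mean over a gene's probes 864, which kept 67 of the first 100. The median SD of log2 signal was 0.14, against 0.20 with median scaling and 0.105 for the authors' processed values, which carry the background. Dim lists moved most: at 1.5 times the background neuroendocrine genes went to 1 above background, cytokines and chemokines to 11, Wnt receptors to 7 and olfactory receptors to 2. When 1 array sufficed, blood cell markers went to 7 and chemokine receptors to 9. The detection p-value alone called 14 olfactory receptors. KLK3 had a percentile of 30.3, and 13.7 without replicate 3. No paired analysis was possible because 1 group was described and its results come from no test.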
